A study of Phaffia rhodozyma with 6 samples.

Results

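The sugar and major facilitator transporters of *Phaffia rhodozyma*, a basidiomycete yeast that makes the carotenoid astaxanthin, are described here as 52 of the 6249 genes in the deposited expression table. A gene was taken as a member when its description contained major facilitator, mfs, sugar transporter, hexose transporter or monocarboxylate. Of the 75 genes that matched, 22 were left out because their description also held drug, amino acid or permease, and 1, a polyamine transporter, was left out by its number. Expression values played no part in the choice. The S group was 3 libraries (S1, S2 and S3) from cells of strain AS2.1557 given salicylic acid (SA), a phenolic plant hormone, at 0.5 mg/L. The C group was 3 libraries (C1, C2 and C3) from cells of the same strain that received water in its place. Both groups grew in YPD medium, which holds 20 g/L glucose as the sugar, in a culture that the study's methods describe at 22 °C for 96 h, and no source says at which hour cells for RNA were taken. The study asked how SA changes gene expression while growth and astaxanthin rise. The study states that its experiments were done 3 times. Nothing in the sources used here says that the libraries of a group came from separate cultures. A p-value here thus speaks only to the variation among these samples, which may be technical. RNA came from whole cultures, in which a change in every cell and a change in the mix of cells cannot be told apart.

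Transporters of the major facilitator superfamily are single proteins of the cell membrane or of inner membranes that carry small molecules by changing shape. They are driven by the gradient of the solute itself or of protons, and not by splitting ATP as the ABC transporters do. In *Saccharomyces cerevisiae* a family of hexose transporters brings glucose into the cell, and carriers of low and high affinity are made at different glucose levels. Other branches of the superfamily move lactate and pyruvate, plant acids such as quinate, siderophores that hold iron, amino acids in and out of the vacuole, polyamines and toxic compounds. For most members the table gives only the branch of the superfamily and not the substrate.

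The values were FPKM, reads scaled by the length of the gene and the size of the library, so levels may be compared between genes. Every comparison used log2(FPKM + 0.1) in limma with Benjamini-Hochberg adjustment over the 6113 genes whose mean reached 0.5 FPKM, and a gene is called higher or lower at an adjusted p under 0.05. The median tested gene stood at 29.2 to 32.0 FPKM with SA and 23.6 to 26.4 in controls, a median log2 fold change of 0.21, so members are also given with every library centred on its median and after quantile normalization. As a check of the organism, phytoene-beta carotene synthase (gene 3233), an enzyme of the carotenoid pathway, was at 51.4 to 105 FPKM in the 6 libraries.

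Of the 52 transporters, 51 passed the limit on low values. Gene 8983, a predicted transporter, did not: it was listed at 0 in S1, C1, C2 and C3, at 0.258 FPKM in S2 and at 0.120 in S3. In the S group 13 of the 51 rose and 1 fell, or 25.5% and 1.96%, where 19.9% of all tested genes rose and 3.03% fell. The median log2 fold change of the members was 0.23, beside 0.21 over all tested genes. As a list, the transporters thus moved about as far as the table did. With centred libraries 5 members were higher and 5 lower, where 7.26% and 15.3% of all genes were, and after quantile normalization again 5 and 5, where 6.61% and 8.47% of all genes were. The median of the members was then −0.04 beside −0.07 over all genes with centring and 0.02 beside −0.04 with quantile normalization. All 3 S libraries lay above all 3 C libraries in 23 members and below them in 3, where this held for 36.1% and 7.48% of all tested genes. The groups overlapped in the other 25.

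**Figure D1:**
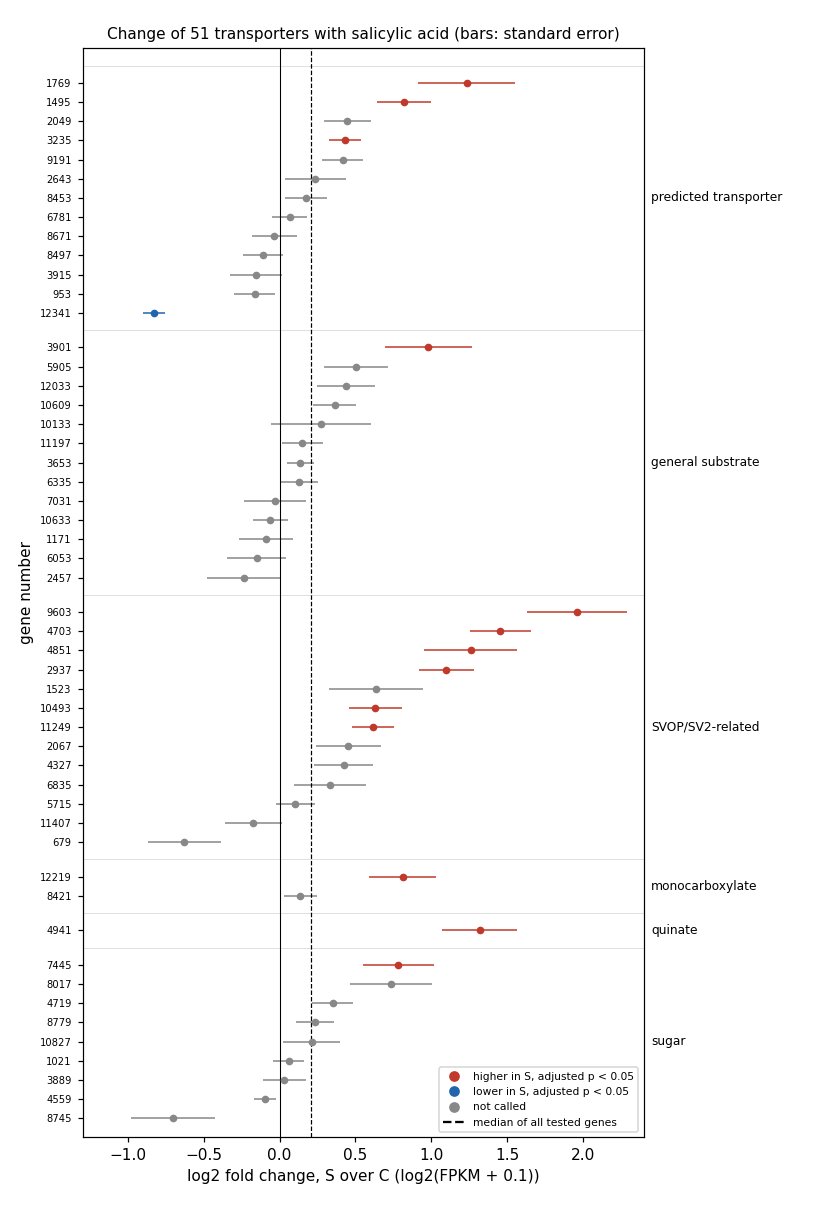
Log2 fold change of each of the 51 tested transporters, S over C (x axis), by gene number (y axis) and by the group its description gives. Points are limma estimates and bars standard errors, red is higher and blue lower at an adjusted p under 0.05, and the dashed line marks the median of all tested genes at 0.21. The SVOP/SV2-related transporters hold the highest number of red points, 6 of 13, and the one blue point is gene 12341 at −0.83.

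The sugar transporters, 9 genes described as sugar, hexose or monosaccharide transporters, were mostly not called. Of these, 1 rose (11.1%, where 19.9% of all tested genes rose), 0 fell (where 3.03% did) and 8 were not called. The median log2 fold change was 0.21, the same as over all tested genes, with a range from −0.70 to 0.78. At an unadjusted p under 0.05 limma gave 3 higher and 1 lower, where 32.4% of all tested genes were higher and 5.27% lower. Centring gave 0 higher and 2 lower among them, where 7.26% and 15.3% of all genes were, and quantile normalization 0 and 1, where 6.61% and 8.47% were. The most abundant transcript of a sugar carrier was that of gene 4559, described as an MFS monosaccharide transporter. It stood at 4454, 4229 and 4067 FPKM with SA (S1 to S3) and at 4906, 4589 and 4157 without it (C1 to C3). The groups overlapped, since C3 lay below S1 and S2. Its level was above that of 99.8% of all genes in the table, and it held 50.3% to 57.7% of the summed FPKM of the 52 transporters in each library. Its log2 fold change was −0.10 (SE 0.07, adjusted p = 0.371), and it turned to 0.09 after quantile normalization and to −0.37 with centred libraries, where it was called lower (adjusted p = 0.0468). Gene 4559 lies on contig LN483157.1 from base 926722 to base 928792.

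Gene 7445, a sugar transporter, was the one that rose. It had 92.3, 89.7 and 185 FPKM with SA (S1 to S3) and 72.1, 65.5 and 63.4 without it (C1 to C3). The S libraries lay above the C libraries, with S3 far above S1 and S2. Its mean was 122 ± 54.4 FPKM with SA and 67.0 ± 4.56 in controls (SD, n = 3 each), and the log2 fold change was 0.78 (SE 0.24, adjusted p = 0.0382). The call was lost with centred libraries (adjusted p = 0.140), after quantile normalization (0.117) and in limma without the trend (0.0876). It was also lost without S3, where the log2 fold change was 0.44 (0.0537), C2 (0.0857) or C3 (0.108). Gene 8017, another sugar transporter, named after its values were seen, showed the same shape without being called: 17.3, 19.1 and 39.7 FPKM with SA (S1 to S3) and 14.7, 14.1 and 13.7 without it (C1 to C3) (log2 fold change 0.74, SE 0.27, adjusted p = 0.0725, and 0.0403 without S1).

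The other sugar transporters were steadier. Gene 4719 had 126, 177 and 168 FPKM with SA (S1 to S3) and 130, 127 and 110 without it (C1 to C3), so S1 lay among the C libraries (log2 fold change 0.35, SE 0.14, adjusted p = 0.0861, and 0.0234 without S1). Gene 1021 had 107 ± 5.78 FPKM with SA and 103 ± 7.81 in controls (SD, n = 3 each). Genes 3889 and 10827, named after their values were seen, were at 25.7 ± 3.59 and 15.2 ± 1.06 FPKM with SA and 25.0 ± 1.65 and 13.3 ± 3.24 in controls. None of these was called with FPKM as deposited. Both genes that the table calls hexose transporters were far less abundant than gene 4559. Gene 8779 had 39.4, 40.5 and 42.3 FPKM with SA and 37.0, 37.5 and 29.9 in controls, with no overlap but a log2 fold change of 0.23 only (SE 0.13, adjusted p = 0.203), which turned to −0.04 with centred libraries and to −0.02 after quantile normalization.

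Gene 8745, the second hexose transporter, was among the faintest members and lay lower in the S group. It had 1.58, 1.03 and 1.66 FPKM with SA (S1 to S3) and 2.05, 2.50 and 2.48 without it (C1 to C3), so the groups did not overlap. The log2 fold change of −0.70 (SE 0.28) was not called (adjusted p = 0.0912). It was called lower with centred libraries (−0.98, adjusted p = 0.0314), after quantile normalization (−1.16, 0.0280) and in limma without a mean-variance trend (0.0457). Values this low are known less precisely than those of abundant genes, and the number of reads behind them is unknown.

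**Figure D2:**
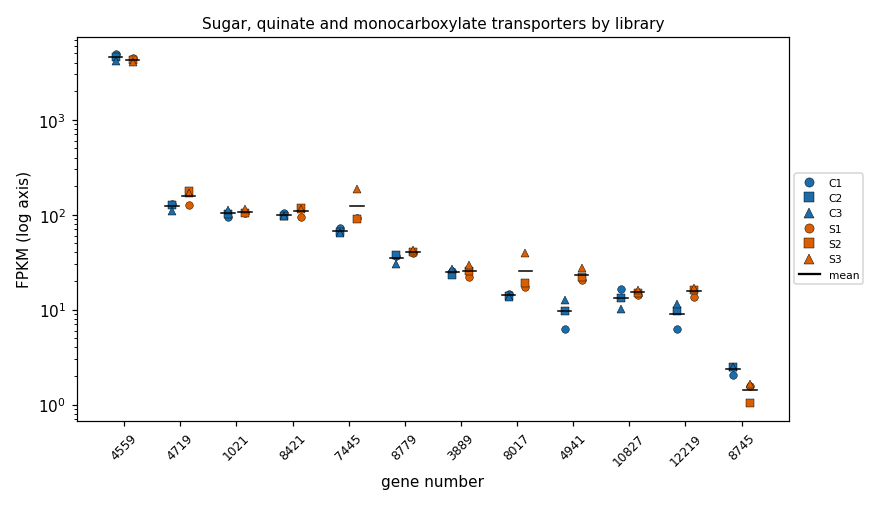
FPKM (y axis, log scale) of the sugar, quinate and monocarboxylate transporters by gene number (x axis), one point per library with S in orange and C in blue, and the mean of each group as a black line. Gene 4559 lies more than 10 times above every other gene at 4067 to 4906 FPKM, and only genes 7445, 4941 and 12219 were called, all higher in S.

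Among the transporters named for organic acids, gene 4941 is described as an MFS quinate transporter. Quinate is a cyclic acid of plants that *Aspergillus* and *Neurospora* can use as a carbon source, although the GO terms of this gene in the table name glucose import. It had 20.4, 21.8 and 27.4 FPKM with SA (S1 to S3) and 6.19, 9.78 and 12.8 without it (C1 to C3). Every S library was above every C library, at 2.43 times the mean, and the log2 fold change was 1.32 (SE 0.24, adjusted p = 0.00659). The call held with centred libraries, after quantile normalization and without any single library (adjusted p at most 0.0440). Gene 4941 lies on contig LN483157.1 from base 1509163 to base 1512188.

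Monocarboxylate transporters are a family that in animals carries lactate and pyruvate together with a proton. Of the 2 found here, 1 rose and 0 fell, where 19.9% of all tested genes rose and 3.03% fell. Gene 12219 had 13.5, 16.0 and 17.1 FPKM with SA (S1 to S3) and 6.19, 9.55 and 11.4 without it (C1 to C3), with no overlap. Its log2 fold change was 0.81 (SE 0.22, adjusted p = 0.0285), and its GO terms place it in the membrane of the vacuole. The call was lost with centred libraries (adjusted p = 0.127), after quantile normalization (0.211), in limma without the trend (0.0502) and without C2, S2 or S3 (0.0555 to 0.0906). Gene 8421, the other, was more abundant and overlapped between the groups, at 95.6, 118 and 115 FPKM with SA and 104, 96.2 and 97.8 in controls (log2 fold change 0.14, adjusted p = 0.393, and −0.14 with centred libraries).

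The transporters described as related to SVOP or SV2 gave the most rises. SVOP and SV2 are vertebrate proteins of synaptic vesicles, and in a yeast the name marks only the branch of the superfamily. Of the 13 genes, 6 rose (46.2%, where 19.9% of all tested genes rose) and 0 fell (1 at an unadjusted p under 0.05 in limma, where 5.27% of all tested genes did). A log2 fold change above 0 was found in 11, and in 4491 of all 6113 tested genes. The median was 0.62, beside 0.21 over all tested genes. With centred libraries 3 were higher and 0 lower, where 7.26% and 15.3% of all genes were. The median was then 0.34 beside −0.07. After quantile normalization 4 were higher and 1, gene 11407, was lower, where 6.61% and 8.47% of all genes were. The median was then 0.28 beside −0.04. The list was not tested as a list.

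Gene 9603 showed the steepest rise of all 51 transporters. It had 19.6, 25.5 and 52.6 FPKM with SA (S1 to S3) and 5.80, 7.36 and 10.2 without it (C1 to C3). The lowest S library lay well above the highest C library, and S3 stood above the rest. The log2 fold change was 1.96 (SE 0.33, adjusted p = 0.00446), and 1.55 without S3 (adjusted p = 0.00699). Gene 4703 was the most even: 7.87, 7.32 and 7.69 FPKM with SA and 2.30, 2.71 and 3.21 in controls. Its SD was 0.281 with SA and 0.458 in controls (n = 3 each), against a difference of the means from 2.74 to 7.63 FPKM, and the log2 fold change was 1.45 (SE 0.20, adjusted p = 0.00234). Gene 2937 had 52.5, 47.7 and 44.4 FPKM with SA (S1 to S3) and 17.1, 29.0 and 22.6 without it (C1 to C3), again with no overlap (log2 fold change 1.10, SE 0.18, adjusted p = 0.00413). Genes 9603, 4703 and 2937 kept their calls under both scalings and without any single library. Their positions are bases 441987 to 445139 of contig LN483273.1, bases 1132068 to 1135368 of contig LN483157.1 and bases 1854195 to 1856757 of contig LN483142.1.

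The other SVOP-related rises rested on fewer libraries or on the scaling. Gene 4851 had 56.3, 73.1 and 134 FPKM with SA (S1 to S3) and 30.3, 26.5 and 49.7 without it (C1 to C3), with S1 only just above C3 (log2 fold change 1.26, SE 0.31, adjusted p = 0.0178). Its call was lost with centred libraries (adjusted p = 0.0618), after quantile normalization (0.0625), in limma without the trend (0.0510) and without C2 (0.0543). Gene 11249, one of the most abundant members, had 106, 145 and 153 FPKM with SA and 89.6, 86.0 and 84.7 in controls (log2 fold change 0.62, adjusted p = 0.0129). It was not called with centred libraries (adjusted p = 0.0714), without S2 (0.0569) or without S3 (0.0537). Gene 10493, named after its values were seen, had 12.2, 16.5 and 17.5 FPKM with SA and 10.3, 9.03 and 10.1 in controls (log2 fold change 0.63, adjusted p = 0.0291). Its adjusted p was 0.114 with centred libraries, 0.220 after quantile normalization and up to 0.119 without C2, S2 or S3.

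Gene 679, also SVOP-related and abundant, went the other way without being called. It had 201, 199 and 198 FPKM with SA (S1 to S3), an SD of 1.22, and 215, 274 and 498 without it (C1 to C3), an SD of 149. The groups did not overlap, but the C libraries were spread widely (log2 fold change −0.63, SE 0.24, adjusted p = 0.0819). Without C1 it was called lower at −0.89 (adjusted p = 0.00712), while without C3, the highest library, the log2 fold change was −0.28 (0.0930). Gene 2067, whose GO terms name polyamine transport, had 148, 177 and 223 FPKM with SA and 99.7, 121 and 188 in controls. Its groups overlapped through C3, and without C3 it was called higher (log2 fold change 0.71, adjusted p = 0.0289, beside 0.45 and 0.153 with all libraries). The log2 fold change was 0.25 without C1 (adjusted p = 0.334) and 0.30 without S3 (0.416).

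The 14 genes described only as predicted transporters of the superfamily held both the fall and some of the rises. Of the 13 tested, 3 rose and 1 fell (23.1% and 7.69%, where 19.9% and 3.03% of all tested genes did). The median log2 fold change was 0.18, beside 0.21 over all tested genes. With centred libraries 1 was higher and 3 lower (median −0.10), and the whole table turned in the same way (7.26% and 15.3%, median −0.07). After quantile normalization it was 0 and 3 (median −0.01), where 6.61% and 8.47% of all genes were (median −0.04). The fall was that of gene 12341, the second most abundant of all 52 transporters and above 98.7% of the genes in the table. It had 1129, 1002 and 1069 FPKM with SA (S1 to S3) and 1991, 1816 and 1868 without it (C1 to C3). The highest S library lay far below the lowest C library, at means of 1067 ± 63.7 and 1892 ± 90.1 FPKM (SD, n = 3 each), 0.564 times the C group. The log2 fold change was −0.83 (SE 0.07, adjusted p = 0.000523), and it was called under every scaling and without any single library (adjusted p at most 0.00349). Among the GO terms the table gives it is the making of gliotoxin, a toxin of *Aspergillus*, and gene 8983, the member below the limit on low values, carries the same terms. Gene 12341 lies on contig LN483345.1 from base 1409347 to base 1412782.

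Gene 1769, which the GO terms place in the uptake of ferrichrome, a siderophore by which fungi take up iron, was faint and rose. It had 2.69, 2.45 and 4.49 FPKM with SA (S1 to S3) and 1.43, 1.55 and 0.894 without it (C1 to C3) (log2 fold change 1.23, SE 0.32, adjusted p = 0.0226). It was higher also with centred libraries (adjusted p = 0.0417) but not after quantile normalization (0.0730), without C3 (0.0535) or without S3 (0.0952). Gene 1495 had 26.1, 34.0 and 35.9 FPKM with SA and 15.1, 17.3 and 22 in controls (log2 fold change 0.82, SE 0.18, adjusted p = 0.0115), a call that was lost under both scalings (adjusted p = 0.0618 and 0.0787) and without S2 (0.0512). Gene 3235, named after its values were seen, had the smallest rise, from 54.1 ± 2.39 to 73.1 ± 4.72 FPKM (SD, n = 3 each; log2 fold change 0.43, adjusted p = 0.0184). Its adjusted p was 0.268 with centred libraries, 0.123 after quantile normalization and up to 0.0819 without C2, S1 or S3. The 3 members whose GO terms name transport of basic amino acids at the vacuole, genes 2049, 6781 and 9191, were not called in limma, where 2 were higher and 0 lower at an unadjusted p under 0.05, as 32.4% and 5.27% of all tested genes were. Their median log2 fold change of 0.42 was 0.14 with centred libraries and 0.10 after quantile normalization, and gene 9191 was called higher without C1 (adjusted p = 0.0440) and with a pseudocount of 0.01 (0.0497), beside 0.0509.

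Of the 13 general substrate transporters, for which the table names no substrate in the description, 1 rose (7.69%, where 19.9% of all tested genes rose) and 0 fell. At an unadjusted p under 0.05 in limma 4 were higher and 0 lower, where 32.4% and 5.27% of all tested genes were. The median log2 fold change of 0.14 turned to −0.14 with centred libraries and to −0.15 after quantile normalization. Over all genes it turned from 0.21 to −0.07 and to −0.04. The rise was that of gene 3901, at 9.19, 7.32 and 17.8 FPKM with SA (S1 to S3) and 5.17, 5.36 and 5.50 without it (C1 to C3). The C libraries were close together, and S3 was above 2 times the mean of S1 and S2. The log2 fold change was 0.98 (SE 0.29, adjusted p = 0.0351), and the call was lost under both scalings (adjusted p = 0.101 and 0.154), in limma without the trend (0.0628) and without C2, C3, S1 or S3 (0.0506 to 0.0917). Gene 3653, the most abundant of the group, had 272, 289 and 311 FPKM with SA and 253, 265 and 275 in controls. S1 lay below C3, and its log2 fold change of 0.14 (adjusted p = 0.276) was −0.14 with centred libraries. The 2 members with GO terms for the uptake of galactose and other sugars with protons, genes 6053 and 10633, were at −0.15 and −0.06 and were not called, also at an unadjusted p under 0.05, in limma.

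**Figure D3:**
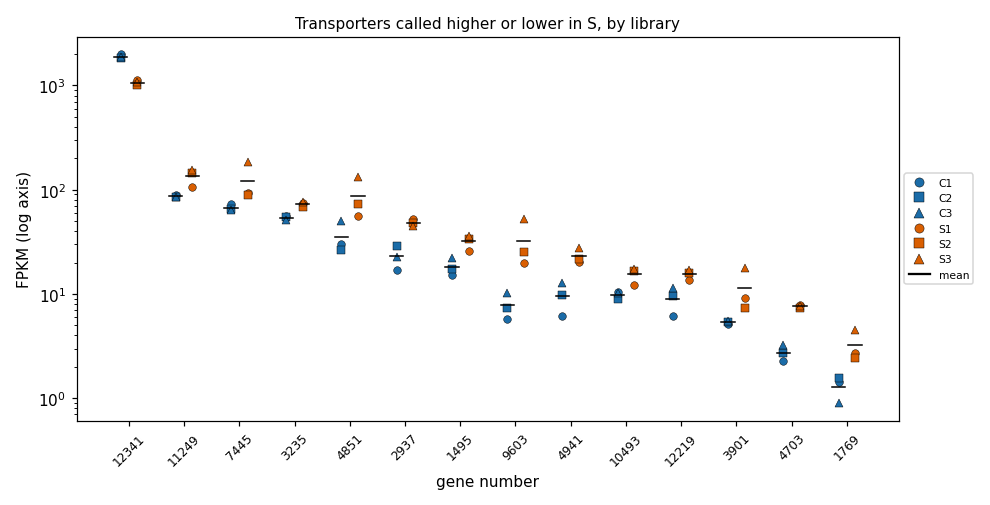
FPKM (y axis, log scale) of the 14 transporters called higher or lower in S, ordered by mean level (x axis, gene number), one point per library and the group mean as a black line. The orange S points and the blue C points do not overlap in any of the 14, which were picked by their difference between these same libraries. Gene 12341 is the one with S below C, and the triangle of S3 stands apart in genes 7445, 4851, 9603 and 3901.

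Library S3 moved with several of the rises. It was the highest of the S libraries in 33 of the 51 tested transporters (64.7%) and in 43.3% of all tested genes. It exceeded both S1 and S2 by more than 1.5 times, a limit set after seeing the values, in 8 transporters (15.7%) and in 3.04% of all tested genes. These were genes 1769, 3901, 4851, 7445, 8017, 9603, 10133 and 12033, of which 5 were called higher. Without S3, 6 transporters were higher and 1 was lower, where 9.06% and 1.29% of all genes were, with a median log2 fold change of 0.16 beside 0.18 over all genes. Genes 4851 and 9603 kept their calls without S3, at log2 fold changes of 0.91 (adjusted p = 0.0440) and 1.55 (0.00699), while genes 1769, 3901 and 7445 did not. Without C2 there were 7 higher and 1 lower, where 11.8% and 1.16% of all genes were, and without S2 9 and 1, where 8.21% and 1.1% were. Over all libraries left out in turn, 4 rises and the fall kept their calls each time: genes 2937, 4703, 4941, 9603 and 12341. No share of all tested genes is given beside this count, so it says nothing of the transporters as a list.

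**Figure D4:**
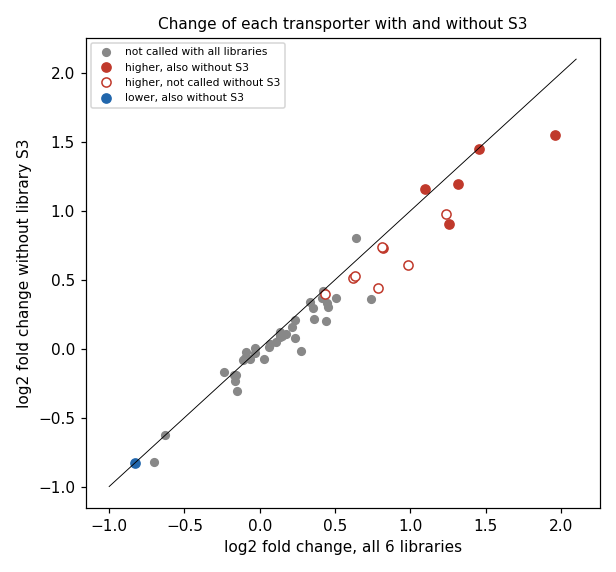
Log2 fold change of each of the 51 tested transporters with all 6 libraries (x axis) and without S3 (y axis), with the line of equal values. Filled red points are called higher both ways, open red points only with S3, and the blue point is gene 12341. All 7 open points, picked by losing their call without S3, lie below the line, and gene 9603 moved from 1.96 to 1.55.

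The summed level of the transporters was lower in the S group, but not without the 2 most abundant genes. Gene 12341 alone went from a mean of 1892 FPKM in controls to 1067 with SA. Gene 4559, not called, went from 4551 to 4250. All 52 members summed to 7722, 7549 and 7861 FPKM with SA (S1 to S3) and to 8811, 8398 and 8265 without it (C1 to C3), which was 1.08% to 1.14% of all FPKM in the S group and 1.18% to 1.27% in the C group. Genes 4559 and 12341 together held 72.6% of the members' summed mean. Without them the sums were 2140, 2318 and 2725 FPKM with SA and 1914, 1992 and 2241 in controls, which overlap. Apart from these 2 genes above 1000 FPKM, 7 members had means of 100 to 1000 FPKM, 29 of 10 to 100, 13 of 1 to 10 and 1 less. The 4 least abundant tested members had means of 1.75 to 2.24 FPKM, and none was called. The median member had 22.1 FPKM beside 27.3 over all genes of the table.

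**Figure D5:**
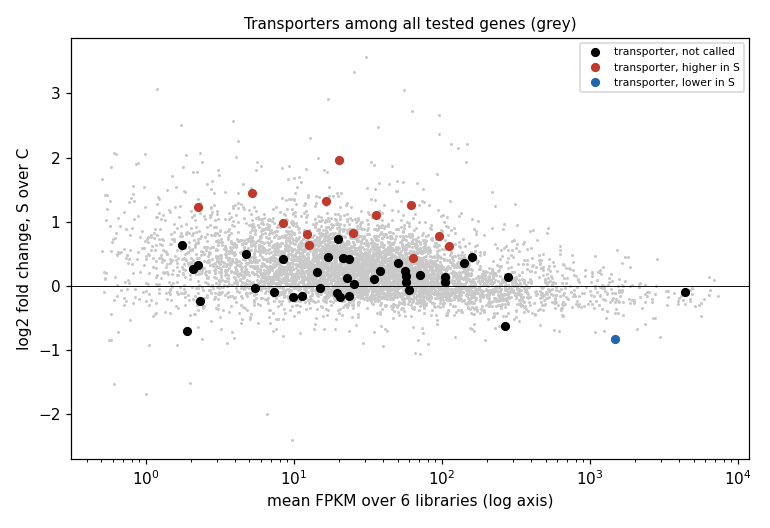
Mean FPKM over the 6 libraries (x axis, log scale) and log2 fold change, S over C (y axis), of all 6113 tested genes in grey and of the 51 tested transporters in black, red (higher) and blue (lower). The rises lie between mean levels of 2.25 and 111 FPKM, and genes 4559 and 12341 stand alone at the right.

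The members were scattered over the genome. They lay on 11 of the 70 contigs in the table, no member was next to another, and none overlapped another gene. The closest were genes 3889 and 3901 with 5 genes between them, whose log2 fold changes were 0.03 and 0.98, and genes 3901 and 3915 with 6 between them, at 0.98 and −0.16. Genes 4703 and 4719, with 7 genes between them, were at 1.45 and 0.35. The coding length of the members was 456 to 4140 bases with a median of 1750.5, beside 1323 over all genes, and the median number of exons was 13 beside 7. Gene 10133, at 456 bases, is far shorter than the other members. The KEGG orthology of hexose transporters (K08139) was given to 6 members, among them genes 4559, 4719, 4941 and 7445. Of the 6, 2 rose (33.3%, where 19.9% of all tested genes rose). Another 9 had other KEGG entries, and both hexose transporters, genes 8745 and 8779, were filed under purine metabolism, so the KEGG column does not follow the descriptions for all members.

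Genes that work beside the transporters were read from 7 lists of words in the descriptions. The counts of every list stand beside 19.9% higher and 3.03% lower over all tested genes. With centred libraries those shares were 7.26% and 15.3%, and after quantile normalization 6.61% and 8.47%. The 7 tested enzymes of upper glycolysis, which prepare and split the hexose after uptake, were not called in either direction, with a median log2 fold change of −0.02. At an unadjusted p under 0.05 limma also gave 0 of them higher and 0 lower, where 32.4% and 5.27% of all tested genes were. The smallest adjusted p-values were those of both aldolase genes (0.143 for gene 589 and 0.193 for gene 11123) and of 6-phosphofructokinase (0.434 for gene 7571). Of 8 tested enzymes that free sugars outside or inside the cell, 2 rose and 1 fell (25.0% and 12.5%). Beta-fructofuranosidase (gene 8603), which splits sucrose, went from 405 ± 32.5 FPKM in controls to 514 ± 40.7 with SA (adjusted p = 0.0257), glucoamylase (gene 4221) from 26.1 ± 1.53 to 40.8 ± 7.51 (0.0156), and a family 31 maltase glucoamylase (gene 3959) fell from 105 ± 0.144 to 77.2 ± 6.31 FPKM (0.0128; SD, n = 3 each). Centring gave 0 higher and 1 lower in this list, and quantile normalization 1 and 1. Neither rise was called with centred libraries (adjusted p = 0.682 and 0.0729).

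Among 8 tested genes for pyruvate and lactate, the substrates of monocarboxylate carriers, 1 rose and 2 fell. These are 12.5% and 25.0%, where 19.9% and 3.03% of all tested genes rose and fell. Pyruvate decarboxylase (gene 3005), which turns pyruvate to acetaldehyde on the way to ethanol, fell from 2831 ± 521 FPKM in controls to 1869 ± 264 with SA (log2 fold change −0.59, adjusted p = 0.0155), and D-lactate dehydrogenase (gene 6415) from 540 ± 24.4 to 442 ± 26.3 (−0.29, 0.0297). After quantile normalization gene 3005 was not called (adjusted p = 0.0814). The rise was a gene described as protein phosphatase 2C or pyruvate dehydrogenase phosphatase (gene 12011, adjusted p = 0.0457, and 0.245 with centred libraries). Centring gave 0 higher and 3 lower in this list, and quantile normalization 0 and 1. Of 12 genes for glucose signalling, 2 rose and 0 fell: a subunit of the HAP CCAAT-binding complex (gene 399, log2 fold change 1.15, adjusted p = 0.0168) and a cAMP-dependent protein kinase (gene 8655, 0.92, 0.0428), neither of which was called with centred libraries (0.0663 and 0.0849). Adenylate cyclase (gene 1429), which makes cAMP, was at −0.27 (adjusted p = 0.112) and was called lower under both scalings (0.0119 centred and 0.0240 quantile). The list as a whole then gave 0 higher and 4 lower by centring, and 0 and 2 by quantile normalization.

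Other carriers were read in the same way. The words permease and amino acid transporter also matched some regulators and chaperones of permeases, which are not carriers. Among these, gene 8211, described as a leucine permease transcriptional regulator, was called higher, and genes 6157, 4377 and 2979 were not called. Of 60 tested genes with these words 15 rose and 1 fell, which is 25.0% and 1.67%. Over all tested genes 19.9% rose and 3.03% fell. The median log2 fold change was 0.40, beside 0.21 over all tested genes. Both scalings gave 8 higher and 5 lower. Of all genes, 7.26% were higher and 15.3% lower by centring, and 6.61% and 8.47% by quantile normalization. The median of the list was then 0.12 by centring and 0.08 by quantile normalization, beside −0.07 and −0.04 over all genes. The smallest adjusted p-values were those of genes 12047, 3671 and 12049, all amino acid transporters (0.00107, 0.00174 and 0.00188), at log2 fold changes of 1.17, 1.59 and 1.14. Of 18 tested multidrug transporters, 3 rose (16.7%, where 19.9% of all tested genes rose) and 0 fell. At an unadjusted p under 0.05 in limma 1 was lower, where 5.27% of all tested genes were. An ABC transporter (gene 625) went from 82.6 ± 2.88 FPKM in controls to 177 ± 33.1 with SA (adjusted p = 0.00141), and a TetB-like drug transporter (gene 9509) from 12.7 ± 0.682 to 32.9 ± 12.7 (0.00524; SD, n = 3 each), beside a multidrug or pheromone exporter (gene 5885, adjusted p = 0.0409), whose call was lost under both scalings (0.182 centred and 0.181 quantile). Centring gave 2 higher and 4 lower in the list, and quantile normalization 2 and 3. The list of ABC transporters held the 11 genes whose description says ABC transporter or ATP-binding cassette. Of these, only gene 625, which is in both lists, rose (9.09%, where 19.9% of all tested genes rose), and 0 fell. At an unadjusted p under 0.05 in limma 2 were lower, where 5.27% of all tested genes were. Centring gave 1 higher and 2 lower in this list of 11, and quantile normalization 1 and 1. Other genes are described as of the ABC superfamily without those words. Gene 5885, which rose, is 1 of them, and it was counted only among the multidrug transporters. In all 7 lists together 23 of 121 genes rose and 4 fell, or 19.0% and 3.31%, beside 19.9% and 3.03% of all tested genes.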

How the data were processed

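RNA-seq of 3 libraries of the S group was compared with 3 of the C group, named as in the sample labels. The authors trimmed reads with fastp, aligned them with HISAT2 and let StringTie estimate the FPKM of each gene; the sources used here give no versions for these. The library kit marked strand, and no source says whether mapping used it. The study names more than 1 assembly and not which one the contigs belong to. The deposited table also carries the authors' own comparison (a fold, which is a ratio, with its log2, p-value and q-value), which was not used. It left 0 per-sample columns unused. Read counts could not be recovered from the FPKM: at the best-fitting depth at most 20.0% of low values lay within 0.05 of whole reads, where chance gives 10%. The depth behind a value is thus unknown, and no counting interval is given.

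Members were found by the words of the description. Log2(FPKM + 0.1) was fitted with limma 3.58.1 (R 4.3.3) on the 6113 genes averaging 0.5 FPKM or more, using a mean-variance trend and no block. P-values were two-sided, with Benjamini-Hochberg adjustment over all of these genes. On this scale the change of low genes is understated. On data simulated for this comparison over 6113 genes, limma called 50.0% of 50 genes raised by 0.58 (log2), 86.0% of 50 raised by 1 and 100% of 50 raised by 2. Among 5913 genes left as they were it made 2 calls. The simulated noise was independent between genes and held no shift shared by a library. These rates therefore need not hold for the deposited values.

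The alternatives were pseudocounts of 1 and 0.01, no limit on low values or one of 1 FPKM, centred libraries, quantile normalization, a block for the replicate number, limma with no trend, and leaving out each library. Named were the 10 largest rises and falls among called members with at least 1 FPKM in the higher group, the 8 most abundant, those described as hexose or monocarboxylate transporters, called members next to another (none were), and up to 3 genes per related list by adjusted p. Other members named were chosen after their values were seen. The members and lists were chosen with earlier results of these data known. Plots used matplotlib 3.10.9 (Python 3.11.15). Near-identical copies and sequences were not analysed here.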

Additional observations from a re-analysis of the deposited data

How the results depend on the processing

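With FPKM as deposited, 1218 of all tested genes rose and 185 fell, and among the transporters 13 and 1. Centring gave 444 and 937 over all genes, 5 and 5 among the transporters with a median log2 fold change of −0.041, and 10 and 18 in the related lists together. Quantile normalization gave 404 and 518, 5 and 5 with a median of 0.024, and 11 and 12. Of the transporters, 4 were higher and 4 lower under both: genes 2937, 4703, 4941 and 9603, and genes 953, 8497, 8745 and 12341 (953 and 8497 named after their values were seen). The share of all tested genes called under both is not given here, so these counts say nothing of the transporters as a list. Without the trend, 958 genes in all, 9 transporters and 18 genes of the related lists were higher. In that setting 80 genes in all, 2 transporters (genes 8745 and 12341) and 2 genes of the related lists were lower. Pseudocounts and limits on low values left every named transporter on its side of the threshold except gene 9191, called higher with a pseudocount of 0.01 (adjusted p = 0.0497, beside 0.0509). Leaving out 1 library gave 501 to 1338 higher and 67 to 293 lower genes, 6 to 14 higher and 1 to 2 lower transporters with a median of 0.15 to 0.34, and 13 to 24 higher and 1 to 5 lower genes in the related lists. The direction turned for gene 1021 (−0.22 with centring, −0.062 with quantile normalization), gene 3653 (−0.14 with centring), gene 4559 (0.095 with quantile normalization), gene 8421 (−0.14 with centring) and gene 8779 (−0.042 and −0.018), none of them called there. The cause was not tested. With the replicate number as a block, 1051 genes in all rose and 151 fell, and among the transporters 13 and 2: genes 2067 and 679 were called (adjusted p = 0.0172 and 0.0400), and gene 10493 was not (0.0524). No source says whether the numbers pair the libraries. Deviations of same-numbered libraries correlated at −0.02, 0.16 and −0.0034 for numbers 1, 2 and 3, and those of other pairs at −0.12 to 0.09. So few libraries cannot decide whether they are paired. The read depth behind single values is unknown, which limits the faint genes 1769, 8745 and 8983 most.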

Other observations

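The 22 genes that the words drug, amino acid or permease kept out of the list, nearly all described as permeases of the major facilitator superfamily, are close relatives by name. Of the 20 tested, 4 rose with SA and 0 fell, where 19.9% and 3.03% of all tested genes did. At an unadjusted p under 0.05 limma gave 7 higher and 1 lower, where 32.4% and 5.27% of all tested genes were. The median log2 fold change of the 20 was 0.37, beside 0.21 over all tested genes. Centring left 1 higher and 1 lower, where 7.26% and 15.3% of all genes were. Quantile normalization left 2 and 2, where 6.61% and 8.47% were. The median was then 0.099 by centring and −0.015 by quantile normalization, beside −0.07 and −0.04 over all genes. The rises were genes 11327, 2977, 2577 and 11103, named after their values were seen, with means of 216, 92.0, 132 and 6.86 FPKM in the S group and 122, 62.3, 79.0 and 3.62 FPKM in the C group. These 4 were also counted among the permeases and amino acid transporters above.

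The genes around the transporters that rose were counted after seeing the data. Among the 126 tested genes that lie within 5 places on either side of the 13 rises, 24 were higher in the S group, or 19.0%, beside 19.9% of all tested genes. The most were 5 of 10 around gene 7445 and 4 of 10 around gene 1769, and there were 0 of 10 around genes 3901 and 12219.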
